A study of Mus musculus with 7 samples.

Results

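A set of 10 genes of vascular endothelial cells was followed in RNA of the High RFP population, which is the brightest red-fluorescent gate of a sort from embryonic mouse neocortex. The genes were *Kdr*, *Flt1*, *Vwf*, *Pecam1*, *Cdh5*, *Tek*, *Tie1*, *Cldn5*, *Emcn* and *Esam*, matched to the count table by Ensembl identifier, and all 10 were among its 38124 genes. Of these, 9 passed the filter on low counts and were among the 16522 genes tested, while *Cldn5* did not pass. Both groups came from heterozygous *Tis21*-CreERT2 embryos of tamoxifen-treated mothers, in which a CreERT2 cassette stands in place of the first exon of *Tis21* and Cre is active in progenitors that give rise to basal progenitors (BPs) and in their progeny. The neocortex was electroporated at E13.5 and dissociated 48 hr later, at E15.5. Controls received a construct in which Cre removes a floxed membrane GFP and turns on nuclear RFP (3 libraries, replicates 1, 2 and 4 of the titles). The other group received the same construct with the Sox9 coding sequence ahead of RFP (4 libraries, replicates 1 to 4). By the study's methods, cortices of several embryos were pooled for a sort, and gates were set on size and shape, on forward scatter and on RFP, none of them described as removing vascular cells by a surface marker.

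Endothelial cells line the blood vessels that grow into the neocortex while neurons are being made there. They are not derived from neural progenitors. Their growth is driven by VEGF, which is released by neural cells and binds the receptor tyrosine kinases encoded by *Kdr* and *Flt1*. Angiopoietins act through the receptor encoded by *Tek*, with *Tie1* as its partner, and vessel walls are sealed by the junction proteins encoded by *Cdh5*, *Cldn5*, *Esam* and *Pecam1*. In a sort of neural progenitors and their neuronal progeny these genes were read as markers of cells outside the neural lineage. Which cells their counts came from in these libraries was not tested. The question put to the data was how many counts of these genes each library held and whether that differed between the groups. It was also asked whether the genes moved together from library to library.

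The total count of a library ran from 4429704 to 12907778. Neural genes were abundant in every library, with a summed level of 10200 to 14100 CPM (counts relative to the depth of the library, scaled with the TMM method) over 11 progenitor and neuron genes, against 9.46 to 71.1 CPM over the 10 endothelial genes. *Sox9*, the gene of the construct, did not show a higher level in the group named for it, with 362, 1026 and 668 counts in the controls and 370, 435, 277 and 177 in the 4 others, a log2 fold change of -0.68 (standard error 0.25, edgeR adjusted p = 0.0493). Group names therefore follow the labels, and every direction given here rests on them. In counts that come from many cells, fewer endothelial cells and less RNA per endothelial cell cannot be told apart.

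Counts of the endothelial genes were low in all 7 libraries. The 10 genes took 414 counts in the 3 control libraries together and 1630 in the 4 libraries labelled Sox9, and no gene exceeded 157 counts in a library. Of the 70 values (10 genes in 7 libraries), 10 were at 3 counts or fewer. A count of 0 was read as allowing up to 3 counts, and every value carries a wide counting error at these depths. Intervals given for shares of counts are exact (Clopper-Pearson, 95%) and cover counting error only, since reads were not tagged by molecule and the cDNA was amplified by PCR.

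The 9 genes tested all lay above 0 in log2 fold change, as did 49.8% of all genes tested. Their median was 1.78 against -0.003 over all genes. A gene low in the controls could pass the filter through the libraries labelled Sox9 alone, so both results are partly set by it. In a fit without a filter, the same 9 genes had a median of 1.68 against 0.51 over all genes with a count. *Kdr*, *Flt1* and *Vwf*, 3 of the 9, rose in the libraries labelled Sox9 at an adjusted p-value under 0.01, where 11.3% of all genes tested were called higher. None of the 9 was called lower, where 3.43% of all genes were, and 7 of the 9 had an unadjusted p under 0.05, as had 7276 of all 16522 genes tested. At an adjusted p under 0.05 the number higher was 7, adding *Pecam1*, *Tie1*, *Emcn* and *Esam*, against 21.9% of all genes. The 9 genes had an average log2 CPM between 0.742 and 3.465. Among the 5959 tested genes in that range, the median log2 fold change was 0.53, 69.9% were above 0 and 20.8% were called higher. Groups that did not overlap, with every library labelled Sox9 above every control, were seen for *Kdr*, *Flt1*, *Vwf*, *Pecam1* and *Emcn* (5 of 10), against 22.9% of all genes tested and 36.6% in the range.

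The number of genes called was 3 as well when edgeR was run with DESeq2's size factors. It was 4 with DESeq2 (adding *Tie1*; 11.5% of all genes), 5 without a filter (adding *Pecam1* and *Tie1*; 8.19%), 1 with cyclic loess normalization and limma-trend, which change the scaling and the test together (*Vwf*; 1.88%), and 6 without Control replicate 2 (adding *Pecam1*, *Cdh5* and *Tie1*; 4.77%).

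**Figure D1:**
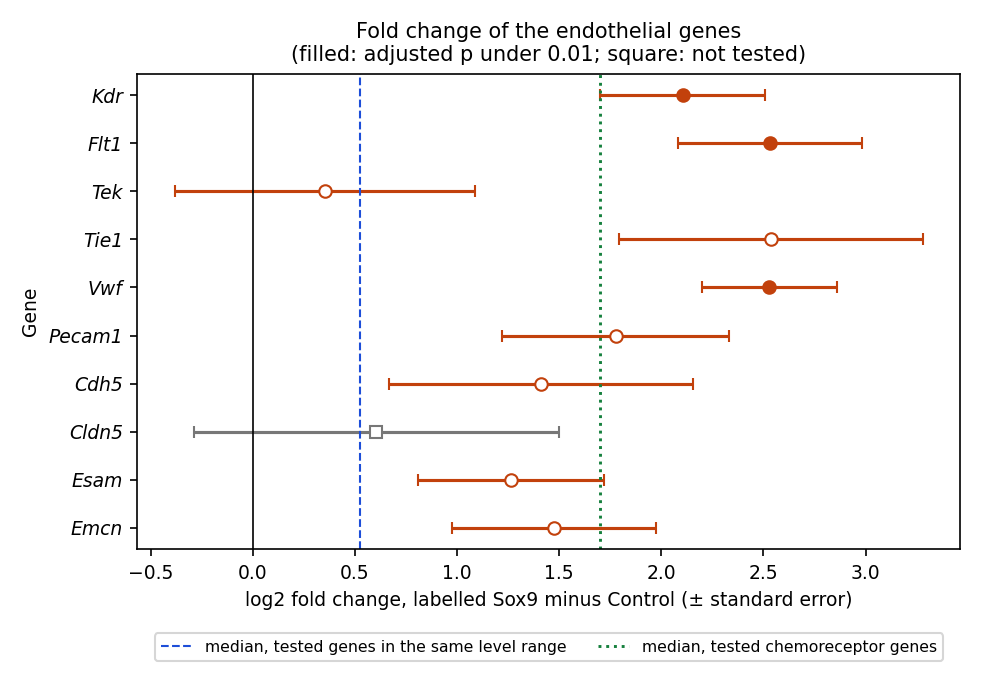
Log2 fold change of each of the 10 endothelial genes (rows), libraries labelled Sox9 minus Control, with its standard error. Filled circles are the 3 genes with an adjusted p under 0.01 and open circles the 6 other genes tested. The square is *Cldn5*, whose value comes from a fit without a filter. The dashed line is the median of tested genes in the same level range (0.53). The dotted line is that of the 99 of 1374 chemoreceptor genes that were tested (1.70). Genes this low can pass the filter through 1 group alone, so the dotted line is partly set by the filter.

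Of the VEGF receptors, *Kdr* (ENSMUSG00000062960, chromosome 5 of mm10, 75932827 to 75978458, reverse strand) encodes VEGFR2, the main signalling receptor for VEGF on endothelium. Its counts were 6, 17 and 15 in Control replicates 1, 2 and 4 and 44, 51, 45 and 23 in Sox9 replicates 1 to 4, the order used for every gene. The 4 libraries labelled Sox9 lay close together in CPM, at 6.04, 4.82, 5.03 and 4.82, and all of them above the controls, at 0.573, 1.48 and 1.53. Mean CPM was 1.19 ± 0.54 in the controls (SD, n = 3) against 5.18 ± 0.59 (SD, n = 4), and *Kdr* rose by 2.11 on the log2 scale (standard error 0.40, edgeR adjusted p = 0.00220).

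*Flt1* (ENSMUSG00000029648, chromosome 5, 147561604 to 147726011, reverse strand) encodes VEGFR1, which binds VEGF tightly and limits its action. It had 12, 20 and 17 counts in the controls and 75, 65, 136 and 18 in the libraries labelled Sox9. Replicate 3, the highest of these, was at 15.2 CPM and replicate 4, the lowest, at 3.77 CPM, still above the highest control at 1.74 CPM. Mean CPM was 1.54 ± 0.34 in the controls (SD, n = 3) against 8.86 ± 5.02 (SD, n = 4), and *Flt1* rose by 2.53 on the log2 scale (standard error 0.45, edgeR adjusted p = 0.00145).

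Of the angiopoietin receptors, *Tek* (ENSMUSG00000006386, chromosome 4, 94739289 to 94874976, forward strand) encodes Tie2, the receptor itself. It had 6, 25 and 10 counts in the controls and 11, 9, 34 and 0 in the libraries labelled Sox9. Both groups spanned low and high values and overlapped, and the count of 0 in Sox9 replicate 4 allows up to 0.629 CPM. The log2 fold change of *Tek* was 0.35 (standard error 0.74, edgeR adjusted p = 0.745). It was -0.54 without Sox9 replicate 3, -0.0056 without Control replicate 1 and 1.02 without Control replicate 2.

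*Tie1* (ENSMUSG00000033191, chromosome 4, 118471191 to 118490061, reverse strand), which encodes the orphan receptor that modulates Tie2, had 0, 15 and 2 counts in the controls and 24, 30, 42 and 6 in the libraries labelled Sox9. Control replicate 2, at 1.30 CPM, lay just above Sox9 replicate 4, at 1.26 CPM, and the other controls were at 0.203 CPM or less. The log2 fold change was 2.54 (standard error 0.74), about as large as that of *Flt1* but with an adjusted p of 0.0189 from edgeR, and *Tie1* was not called. Without Control replicate 2 it was called with a log2 fold change of 4.78, fitted against 0 and 2 counts in the other controls.

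*Vwf* (ENSMUSG00000001930, chromosome 6, 125546774 to 125686679, forward strand) encodes von Willebrand factor, the secreted clotting protein that endothelial cells and megakaryocytes store. It had the most counts of the 10 genes, with 35, 18 and 40 in the controls and 157, 121, 154 and 90 in the libraries labelled Sox9. No library labelled Sox9 was under 11.4 CPM and no control above 4.07 CPM. Mean CPM was 2.99 ± 1.29 in the controls (SD, n = 3) against 17.3 ± 4.28 (SD, n = 4), and *Vwf* rose by 2.53 on the log2 scale (standard error 0.33, edgeR adjusted p = 2.23e-04). It was called in all 16 other fits that tested it, in which its adjusted p ran from 2.32e-14 to 0.00945.

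*Pecam1* (ENSMUSG00000020717, chromosome 11, 106654217 to 106750628, reverse strand) encodes CD31, an adhesion molecule of endothelial junctions that platelets and some white blood cells also carry. It had 7, 36 and 5 counts in the controls and 32, 39, 73 and 18 in the libraries labelled Sox9. Control replicate 2 stood far above the other controls, at 3.13 CPM against 0.669 and 0.509, and close to the lowest library labelled Sox9, at 3.69 CPM. The log2 fold change was 1.78 (standard error 0.55, edgeR adjusted p = 0.025), and without Control replicate 2 *Pecam1* was called with a log2 fold change of 3.07.

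*Cdh5* (ENSMUSG00000031871, chromosome 8, 104101625 to 104144511, forward strand) encodes VE-cadherin, the cadherin of endothelial adherens junctions. Control replicate 2 alone held 23 of the 25 control counts, with 1 count in each of the other controls, against 11, 24, 26 and 6 counts in Sox9 replicates 1 to 4. That control, at 2.00 CPM, lay above Sox9 replicates 1 and 4, at 1.51 and 1.26 CPM. The log2 fold change was 1.41 (standard error 0.75, edgeR adjusted p = 0.159). Without Control replicate 2, *Cdh5* was called with a log2 fold change of 4.19, a value fitted against 1 count in each of the other controls. Its start overlaps an antisense gene, from which reads cannot be told apart if strand was not used in counting.

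*Cldn5* (ENSMUSG00000041378, chromosome 16, 18776847 to 18778262, forward strand) encodes claudin-5, the main tight junction protein of the blood-brain barrier, and has a single exon. It had 1, 7 and 1 counts in the controls and 0, 0, 15 and 0 in the libraries labelled Sox9. All of the signal in the second group thus came from replicate 3, the counts of 0 allowing up to 0.412, 0.283 and 0.629 CPM in replicates 1, 2 and 4. *Cldn5* was not tested, and a fit without a filter gave a log2 fold change of 0.60 (standard error 0.89).

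*Esam* (ENSMUSG00000001946, chromosome 9, 37528078 to 37538319, forward strand), which encodes an adhesion molecule of endothelial tight junctions, had 17, 29 and 12 counts in the controls and 15, 50, 64 and 15 in the libraries labelled Sox9. Sox9 replicate 1, at 2.06 CPM, lay below Control replicate 2, at 2.52 CPM. The log2 fold change was 1.26 (standard error 0.46, edgeR adjusted p = 0.0462).

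*Emcn* (ENSMUSG00000054690, chromosome 3, 137341067 to 137432185, forward strand), which encodes endomucin, a sialomucin of venous and capillary endothelium, had 14, 8 and 14 counts in the controls and 11, 39, 47 and 10 in the libraries labelled Sox9. Both groups came close without overlapping, at 1.51 CPM in Sox9 replicate 1 and 1.42 CPM in Control replicate 4. The log2 fold change was 1.47 (standard error 0.50, edgeR adjusted p = 0.0359).

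**Figure D2:**
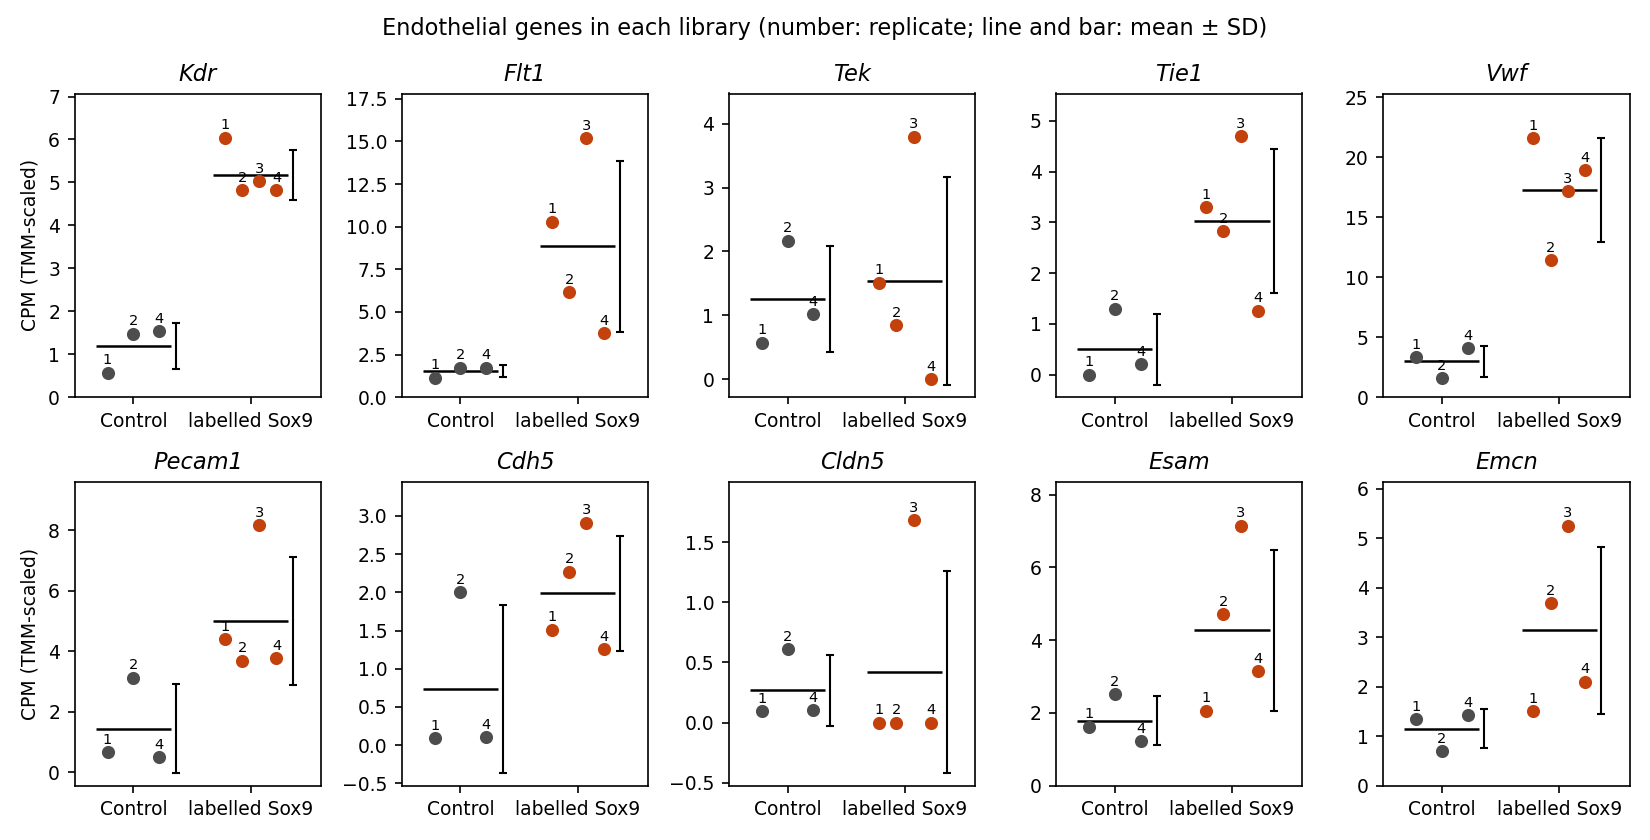
TMM-scaled CPM of the 10 endothelial genes in each library (points, numbered by replicate), with the group mean (line) and SD (bar). Control replicate 2 is the highest control for 7 genes and Sox9 replicate 3 the highest library labelled Sox9 for 8 genes, while *Kdr* and *Vwf* are high in all 4 libraries labelled Sox9.

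To show the DNA from which these genes start, the 250 bases before the start site were read from RefSeq (GRCm38.p6) for 1 receptor that was called, *Flt1*, and for *Tie1* and *Cldn5*, whose control counts lay mostly in 1 library. ETS factors, which drive many endothelial genes, bind sites with the core GGAA, and capitals mark GGAA on either strand (TTCC on the other). By RefSeq's start site, which for *Tie1* lies inside the gene span given above, the *Flt1* window (chr5:147726012-147726261, reverse strand) held 4 matches, the *Tie1* window (chr4:118489850-118490099, reverse strand) 7 and the *Cldn5* window (chr16:18776597-18776846, forward strand) 0.
Flt1: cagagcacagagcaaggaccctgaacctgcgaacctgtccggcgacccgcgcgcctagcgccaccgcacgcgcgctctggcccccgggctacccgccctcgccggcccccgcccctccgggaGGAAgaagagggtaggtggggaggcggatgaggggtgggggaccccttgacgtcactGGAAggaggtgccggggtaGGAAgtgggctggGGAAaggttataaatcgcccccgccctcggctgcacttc
Tie1: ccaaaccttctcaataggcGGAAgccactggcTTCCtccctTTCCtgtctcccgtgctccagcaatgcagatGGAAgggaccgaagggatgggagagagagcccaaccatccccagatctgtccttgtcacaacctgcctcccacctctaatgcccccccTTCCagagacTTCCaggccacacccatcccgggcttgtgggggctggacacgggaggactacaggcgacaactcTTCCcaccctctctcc
Cldn5: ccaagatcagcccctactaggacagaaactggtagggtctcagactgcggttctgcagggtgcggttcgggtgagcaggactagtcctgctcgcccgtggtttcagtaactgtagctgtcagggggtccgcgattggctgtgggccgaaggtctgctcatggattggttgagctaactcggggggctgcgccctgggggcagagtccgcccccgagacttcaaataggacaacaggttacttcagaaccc
The core is short, and 93.4% of 32851 RefSeq windows of the same length held it, with a median of 3 matches. The longer form CGGAAG, searched on both strands and containing the core, was found in the *Tie1* window and in 13.6% of all windows. RefSeq windows were found for 6 of the 10 genes, and those of *Kdr*, *Tek* and *Emcn* held 4, 2 and 4 matches to GGAA.

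Most of the 10 genes had their highest value in the same library of a group. Control replicate 2 was the highest control for 7 of the 10 genes, where it was highest for 32.3% of all genes tested, and Sox9 replicate 3 the highest of its group for 8 of 10, against 22.9% of all genes. The same 7 genes, *Flt1*, *Pecam1*, *Cdh5*, *Tek*, *Tie1*, *Cldn5* and *Esam*, were highest in both of these libraries. *Emcn* was highest in Sox9 replicate 3 but lowest of the controls in Control replicate 2. *Kdr* and *Vwf* were highest in Control replicate 4 and Sox9 replicate 1. With 3 and 4 libraries per group, no correlation was computed.

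The concentration in Control replicate 2 exceeded counting error for 6 of the 10 genes. This library made up 36.2% of the scaled depth of the control group, and it held 92.0% of the control counts of *Cdh5* (95% interval 74.0 to 99.0), 88.2% of those of *Tie1* (63.6 to 98.5) and 75.0% of those of *Pecam1* (60.4 to 86.4). The intervals of *Cldn5*, *Tek* and *Esam* also lay above 36.2%, whereas 3300 of all 16522 genes tested and 12.1% of genes in the level range of the endothelial genes had such an interval. *Vwf* went the other way, with 19.4% of its control counts in this library (11.9 to 28.9). Its interval lay below 36.2%, as did those of 20.8% of all genes tested.

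Sox9 replicate 3 made up 28.3% of the scaled depth of its group, and the interval lay above that share for 7 of the 10 genes, against 17.0% of all genes tested and 16.8% in the level range. It held 100% of the counts of *Cldn5* in the libraries labelled Sox9 (78.2 to 100), 63.0% of those of *Tek* (48.7 to 75.7) and 46.3% of those of *Flt1* (40.5 to 52.1). Of the other junction genes, it held 45.1% of the counts of *Pecam1* (37.2 to 53.1), 44.4% of those of *Esam* (36.2 to 52.9) and 38.8% of those of *Cdh5* (27.1 to 51.5). The interval of *Cdh5*, like those of *Kdr* and *Vwf*, reached below 28.3%.

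**Figure D3:**
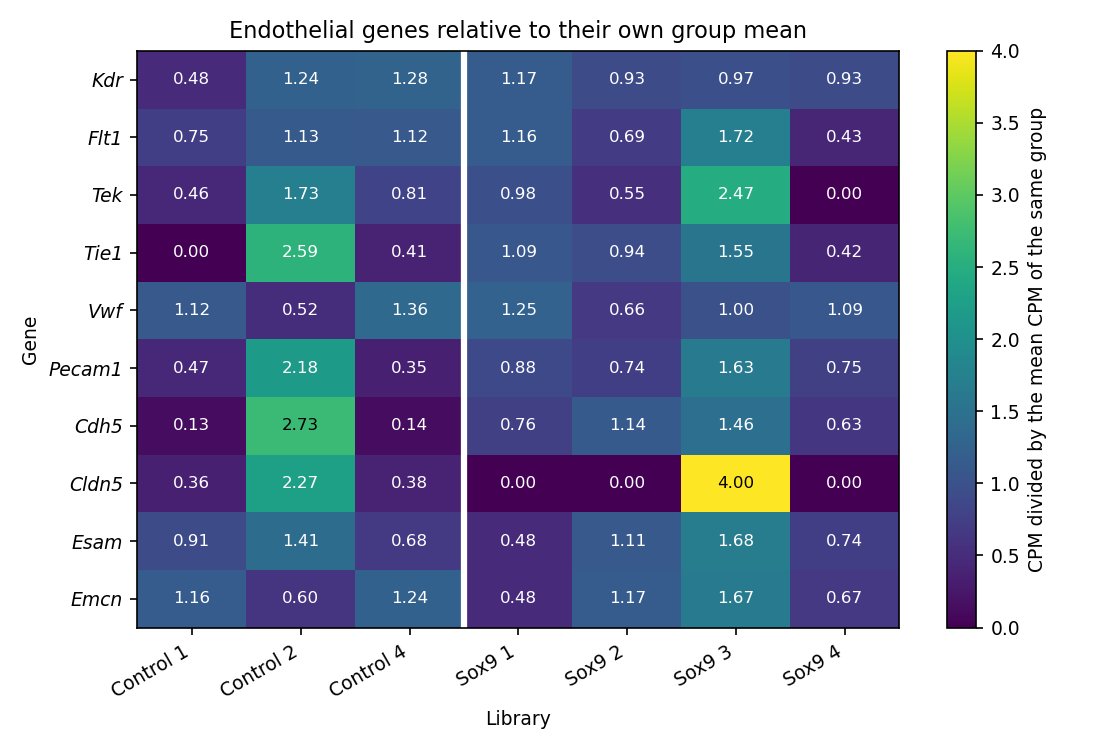
CPM of each endothelial gene (rows) in each library (columns) divided by the mean of its own group. Control replicate 2 reaches 2.73 for *Cdh5* and Sox9 replicate 3 reaches 4.00 for *Cldn5*, the highest value 4 libraries allow, while *Kdr* stays between 0.93 and 1.17 in the libraries labelled Sox9.

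Genes that can be read against each other only per length were placed on a scale of CPM per kilobase of exon. On that scale the means of the 10 genes ran from 0.102 (*Tie1*) to 0.624 (*Esam*) in the controls and from 0.296 (*Cldn5*) to 1.49 (*Esam*) in the libraries labelled Sox9. *Esam* was the highest in both groups, at 0.624 ± 0.232 (SD, n = 3) and 1.49 ± 0.77 (SD, n = 4), and *Vwf* second in the libraries labelled Sox9 at 1.08 ± 0.27 (SD, n = 4), within the spread of *Esam*. In the controls, *Tek*, *Pecam1*, *Emcn*, *Cldn5*, *Vwf*, *Cdh5*, *Kdr*, *Flt1* and *Tie1* followed, from 0.266 down to 0.102. Neighbours in this run differed by less than their spread. In the libraries labelled Sox9, *Pecam1*, *Flt1*, *Tie1*, *Emcn*, *Kdr*, *Cdh5*, *Tek* and *Cldn5* followed *Vwf*, from 0.803 down to 0.296, and neighbours from *Pecam1* on likewise differed by less than the larger of their SDs.

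The deposited FPKM are on another length scale. The length that links counts and FPKM was the whole gene span for all 10 genes (ratio 0.992 to 1.01), which is 28.8 times the exonic length for *Tek* and equal to it for the single-exon *Cldn5*. By FPKM, *Cldn5*, at 0.171 ± 0.184 (SD, n = 3) in the controls, and *Esam*, at 0.158 ± 0.055 (SD, n = 3), could not be ordered beyond their spread. The value of *Cldn5* was 0.384 in Control replicate 2 and 0.061 and 0.068 in the other controls, below *Esam* in both. All 10 genes had a mean FPKM under 1 in both groups. *Cldn5* reached an FPKM of 1.297 in Sox9 replicate 3 on 15 counts, while *Flt1* was at 0.101 in the same library on 136 counts.

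Chemoreceptor genes, which encode odorant, pheromone and taste receptors of sensory cells, gave the level of genes with no known role in neural progenitors. The 1374 of them averaged 0.0394 CPM per kilobase of exon in the controls and 0.122 in the libraries labelled Sox9. Above their 95th percentile, which was 0.175 and 0.567, lay 6 of the 10 endothelial genes in the controls and 7 in the libraries labelled Sox9. Some lay close to that line, with *Vwf* at 0.186 and *Cdh5* at 0.174 in the controls. In the libraries labelled Sox9, *Kdr* was at 0.574 and *Emcn* at 0.580. Whether introns were counted is not given, and intronic reads would raise a value per exonic length for genes with a long span. Summed over the list, chemoreceptor genes were at 113 to 155 CPM in the controls and 342 to 481 CPM in the libraries labelled Sox9, a ratio of means of 3.02. The endothelial genes were at 9.46 to 17.2 CPM and 39.0 to 71.1 CPM, a ratio of 3.94. Per 100 CPM of chemoreceptor genes, the endothelial genes summed to 6.12, 15.2 and 8.14 in the controls and 11.7, 11.8, 14.8 and 9.74 in the libraries labelled Sox9, and the groups overlapped. Only *Vwf* of the 10 kept its groups apart on this scale, and *Vwf* alone was called when libraries were scaled to their chemoreceptor counts (1.44% of all genes called higher), a scaling chosen after the data were seen that moved the median of all genes to -1.59.

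**Figure D4:**
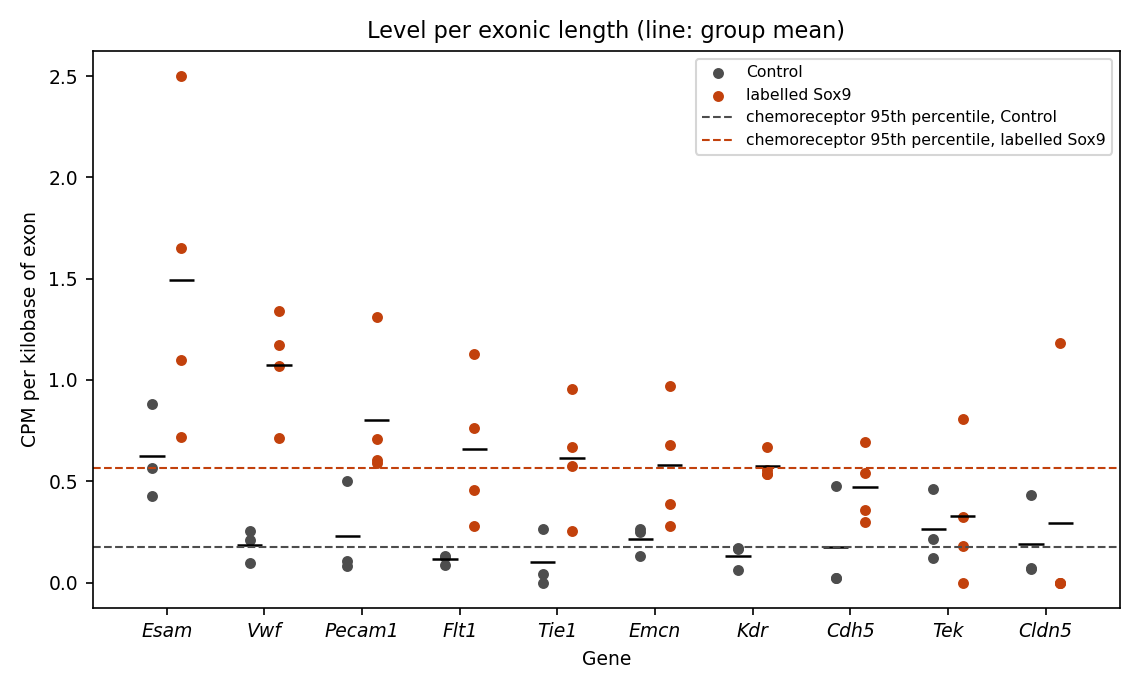
CPM per kilobase of exon for each endothelial gene (points are libraries, lines group means), ordered by the mean in the libraries labelled Sox9. Dashed lines are the 95th percentile of chemoreceptor genes in each group (0.175 and 0.567). *Esam* and *Vwf* have the highest means in the libraries labelled Sox9, while in the controls *Vwf* has rank 6.

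A second list of 34 endothelial genes (transcription factors, surface proteins and transporters) was read beside them. Of the 34, 15 were tested, 2 were called higher and 0 lower, a share near the 11.3% of all genes tested that were called higher. The median log2 fold change was 1.19, and 13 values were positive. Its sum was 79.6 to 96.9 CPM in the controls and 121 to 133 CPM in the libraries labelled Sox9. Much of it came from genes with log2 fold changes near 0, among them *Slc2a1*, at 28.2 CPM in the libraries labelled Sox9 (log2 fold change -0.092), and *Mfsd2a*, at 20.5 CPM (0.21), both named after their values were seen. *Ptprb*, which encodes the phosphatase VE-PTP that acts on Tie2 and VE-cadherin, was at 2.82 CPM on average in the controls and 15.2 CPM in the other group, and rose (log2 fold change 2.42, standard error 0.36, edgeR adjusted p = 5.38e-04). *Eng*, which encodes the TGF-beta co-receptor endoglin, had 1, 3 and 1 counts in the controls and 15, 22, 19 and 2 in the libraries labelled Sox9, and was called as well (edgeR adjusted p = 0.0033). *Cd93* had a log2 fold change of 1.19 and an adjusted p of 0.0122. Sox9 replicate 3 was the highest of its group for 15 of the 34 genes and Control replicate 2 for 16. Over all genes tested, these shares were 22.9% and 32.3%.

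Ligands, co-receptors and signals around these receptors were a list of 15 genes, 14 of them tested, with 4 called higher, against 11.3% of all genes tested, and 0 lower, and a median log2 fold change of 0.58. *Sema3e*, a semaphorin that repels vessels through plexin-D1, had 16, 12 and 9 counts in the controls and 176, 170, 83 and 65 in the libraries labelled Sox9, a log2 fold change of 3.75 (standard error 0.38, edgeR adjusted p = 4.0e-05). *Angpt4*, an angiopoietin, had a log2 fold change of 3.20 and *Nrp2*, a co-receptor for VEGF-C and semaphorins, of 1.67, and both were called. The fourth gene called was *Angpt2*, an angiopoietin made by endothelial cells themselves, at 1.68. *Vegfa*, the ligand of both VEGF receptors, had 30, 38 and 31 counts in the controls and 16, 21, 21 and 25 in the libraries labelled Sox9 (log2 fold change -0.13, standard error 0.40, edgeR adjusted p = 0.828). *Angpt2* and *Vegfa* were singled out after their values were seen. Sox9 replicate 1, not replicate 3, was the highest of its group for 10 of the 15 genes, where it was highest for 29.6% of all genes tested and 36.7% of those in the level range of the endothelial genes.

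Red blood cells were followed with their own genes. The 11 erythroid genes summed to 2.49 to 25.6 CPM in the controls and 17.2 to 95.9 CPM in the libraries labelled Sox9. Of the 11, Sox9 replicate 3 was the highest of its group for 8, as it was for 8 of the endothelial genes, and Control replicate 2 was the highest control for 6. Those libraries were highest for 22.9% and 32.3% of all genes tested. Transcripts of the 7 globin genes summed to 11, 269 and 121 counts in the controls and 95, 669, 783 and 97 in the libraries labelled Sox9. In CPM, globin was at 63.2 in Sox9 replicate 2 and 87.5 in replicate 3, and neither an erythroid nor an endothelial gene was highest of its group in replicate 2. Of 6 erythroid genes tested, 1 was called higher, against 11.3% of all genes tested, the adult globin gene *Hba-a2* (edgeR adjusted p = 0.0096). The adult globin genes *Hbb-bt* and *Hba-a1* had adjusted p-values of 0.0233 and 0.0259. The embryonic globin genes of the list, named after their values were seen, had values below 0, with a log2 fold change of -0.87 for *Hbb-y* (edgeR adjusted p = 0.530), 60 of whose 62 control counts were in Control replicate 4. *Hba-x* and *Hbb-bh1* were not tested, and Control replicate 4 likewise held 16 of 20 and 5 of 5 of their control counts. The globin genes include near-identical copies between which reads may have been split.

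Microglia genes also moved together by library. All 13 were highest in Sox9 replicate 1 within that group and 12 of 13 in Control replicate 2 within the controls. Those libraries were highest for 29.6% and 32.3% of all genes tested. Summed levels of the 13 genes were 18.1, 58.6 and 40.4 CPM in the controls and 97.0, 44.5, 40.4 and 27.9 CPM in the libraries labelled Sox9. The endothelial and microglia genes thus shared their highest control but not their highest library labelled Sox9. Of the 13, only *C1qa* was called higher (edgeR adjusted p = 0.00505), against 11.3% of all genes tested, and *C1qc* and *Ptprc* had adjusted p-values of 0.0577 and 0.0588. The median log2 fold change of the list was 0.28, and 3 of the 13 lay below 0, which were, named after their values were seen, *Aif1* (-0.48), *Cx3cr1* (-0.27) and *P2ry12* (-0.15).

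Mural cells, which wrap the endothelium, were followed with 12 genes. Their sum was 11.9 to 17.2 CPM in the controls and 30.9 to 55.2 CPM in the libraries labelled Sox9, and of 11 genes tested 4 were called higher and 0 lower, against 11.3% and 3.43% of all genes tested. *Myh11*, *Des* and *Anpep* rose by log2 fold changes of 2.51, 3.22 and 2.59, and *Cspg4*, named after its value was seen, by 2.85. The median over the list was 1.73, and *Pdgfrb*, a receptor that marks pericytes and was also named after its value was seen, had a log2 fold change of -1.03 (edgeR adjusted p = 0.304). Sox9 replicate 1 was the highest of its group for 7 of the 12 genes and replicate 3 for 4, against 36.7% and 26.2% of genes in the level range. The 9 meningeal fibroblast genes summed to 5.82 to 10.2 CPM in the controls and 11.9 to 21.8 CPM in the other group, and 6 were tested, with 2 called higher, *Col1a1* and *Slc6a13*, and 1 lower, *Ptgds*, at a log2 fold change of -3.05, against 11.3% and 3.43% of all genes tested. Among the neural genes, *Eomes*, *Vim* and *Btg2* were called lower, with log2 fold changes of -2.25, -1.17 and -0.81, as was *Pax6*, named after its value was seen, at -1.15, which makes 4 of 11 against 3.43% of all genes tested. Apart from the chemoreceptor list, of which 1167 of 1374 genes had a count, no gene of these lists was at 0 in all 7 libraries.

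Without Control replicate 2 and Sox9 replicate 3, both left out after the data were seen, the endothelial genes summed to 10.7 CPM on average in the controls and 43.9 CPM in the libraries labelled Sox9, a ratio of 4.11 against 3.94 with all libraries. Only *Vwf* was then called, where 1.5% of all genes tested were called higher. *Kdr* then had a log2 fold change of 2.30 (edgeR adjusted p = 0.0174) and *Flt1* of 2.23 (edgeR adjusted p = 0.0181). The ratios were 2.63 for the chemoreceptor genes and 4.23 for the erythroid genes in the same libraries. The part of the chemoreceptor, erythroid, microglia, mural and meningeal levels in the endothelial values was not tested.

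**Figure D5:**
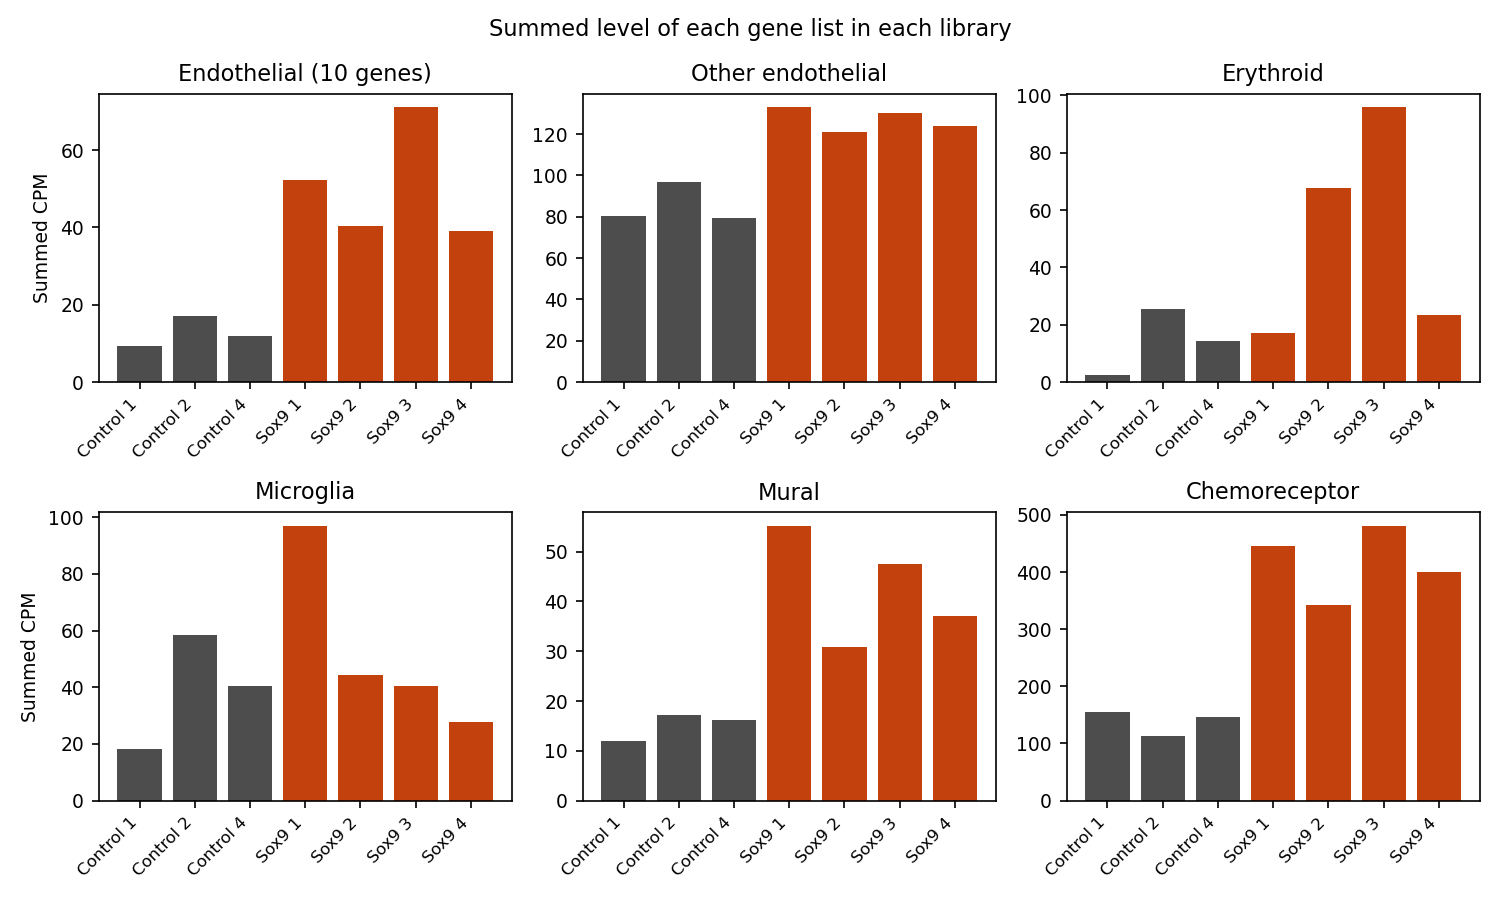
Summed CPM of 6 gene lists in each library (grey bars, Control; orange bars, labelled Sox9). Endothelial and erythroid genes are highest in Sox9 replicate 3 (71.1 and 95.9 CPM), microglia genes in Sox9 replicate 1 (97.0 CPM), and chemoreceptor genes in Sox9 replicate 3 (481 CPM).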

How the data were processed

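Poly-dT primed cDNA of sorted High RFP cells was sequenced. Per the labels, the reads were demultiplexed with bcl2fastq 2.17.1.14 and aligned with STAR 2.5.2b to GRCm38 (mm10); adapters were trimmed with cutadapt. Raw counts and FPKM (scaled for length and depth) were deposited by the authors for each Ensembl gene. The counting program, and whether it used strand or introns, is not given in the sources used here.

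Symbols, spans and merged exons came from GENCODE M21 (GRCm38), which held 36345 of the 38124 genes. The test was that of edgeR 4.0.16 under R 4.3.3, run on the counts (TMM, filterByExpr, two-sided quasi-likelihood test, no covariate), with Benjamini-Hochberg adjustment over all 16522 genes tested and calls under 0.01. The standard error is the absolute log2 fold change divided by the square root of F. DESeq2 1.42.0 and limma 3.58.1 served for alternatives, and Python 3.11.15 for summaries. FPKM were described, not tested.

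Groups and replicate numbers follow the titles, which number the third control 4 while its description gives 3. Each library is labelled a biological replicate. The members and gene lists were chosen with earlier results of these data known. All 10 members were named, with the 3 smallest p-values of each other list, *Sox9* and, after their values were seen, *Angpt2*, *Vegfa*, *Cspg4*, *Pdgfrb*, *Pax6*, *Hbb-y*, *Hba-x*, *Hbb-bh1*, *Aif1*, *Cx3cr1*, *P2ry12*, *Slc2a1* and *Mfsd2a*. Alternatives are given in the closing section.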

Additional observations from a re-analysis of the deposited data

Results flagged for a closer look

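Within the 4 libraries labelled Sox9, 1 library stood far from the others for 2 of the 10 endothelial genes, measured as its gap to the nearest library over the whole range, beyond Dixon's 95% critical value. For *Cldn5* this ratio was 1.00, with 1.68 CPM in replicate 3 and no count in the others. With the other values tied at 0 the ratio is fixed at this value, and those zeros allow up to 0.629 CPM, so it shows only that all 15 counts were in replicate 3. For *Pecam1* it was 0.841, with 8.16 CPM in replicate 3 against 3.69, 3.77 and 4.40 CPM. Chance flags about 1 in 20 such groups where values are not tied.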

How the results depend on the processing

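Depth limits every value here, with 10 of 70 counts at 3 or fewer. The number of endothelial genes called higher, 3, became 1 with cyclic loess and limma-trend (scaling and test changed together), 1 with a replicate block from the titles (2.42% of all genes tested called higher), 1 without Control replicate 2 and Sox9 replicate 3, 1 with libraries scaled to chemoreceptor counts, 5 without a filter and 7 at an adjusted p under 0.05. It lay between 3 and 6 with a library left out in turn, the 6 coming without Control replicate 2, while the share of all genes ran from 4.77% to 10.2%. It was 4 with DESeq2, 3 with DESeq2's size factors and with a replicate block from the descriptions (6.26% of all genes), and 2 of 3 genes tested with at least 10 counts in every library (5.52%). The number called lower was 0 throughout, where the share of all genes called lower ran from 0.893% without both libraries to 67.3% with chemoreceptor scaling. The median log2 fold change of 1.78 became 1.31 with loess, 2.67 with at least 10 counts, 2.23 without both named libraries and 0.044 with chemoreceptor scaling, and lay between 1.45 and 2.29 with a library left out. *Tek* reversed to -2.35 with loess, -0.69 with the replicate block from the titles, -0.0056 without Control replicate 1, -0.54 without Sox9 replicate 3 (range with a library left out -0.54 to 1.02) and -1.38 with chemoreceptor scaling. That scaling also turned *Cdh5* to -0.30, *Emcn* to -0.085 and *Esam* to -0.38, but it moved the median of all genes to -1.59, below each of these values. The causes were not tested. Same-numbered libraries of the titles share only a number, with deviations from the group means correlated at -0.036, 0.118 and -0.0048 for numbers 1, 2 and 4, and 2 of 6 samples correlated best with their own number. Over all members, 131 of 139 recomputed values kept their direction, and 4 of the 8 others were under chemoreceptor scaling. *Kdr* and *Flt1* were called with each library left out, 7 of 7 times. The last alternatives, leaving out both libraries and chemoreceptor scaling, were chosen after seeing the data.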
